A study of Mus musculus with 2 samples.

Results

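Carboxylesterases and the oxidoreductases that act on carbonyl, alcohol and aldehyde groups were examined in RNA of the mouse jejunum, the middle segment of the small intestine. Members were taken by gene symbol: every probe set whose platform annotation gave 1 symbol of the families Ces, Akr1 or Akr7, Adh with a number, or Aldh with a number, with Aldh1l2 left out. That gave 88 probe sets for 54 genes, out of 18193 genes that had their own probe set on the array. There were 13 carboxylesterase genes (Ces), 15 aldo-keto reductase genes (Akr), 7 alcohol dehydrogenase genes (Adh, the pseudogene Adh6-ps1 among them) and 19 aldehyde dehydrogenase genes (Aldh). A further 4 probe sets matched more than 1 gene, such as Ces3a and Ces3b together, and were not counted as members.

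The series compares a wild-type group with a group labelled XBP1 knock-out, to link stress of the endoplasmic reticulum (ER) to inflammation of the gut; XBP1 is a transcription factor made active by IRE1, a sensor of that stress. Each group is 1 Affymetrix whole-genome mouse array carrying RNA pooled from 3 mice, so no difference below has a replicate check and no p-value is given. The RNA came from scrapings of the intestine, in which epithelium and the underlying mucosa are read together. The labels used here do not give the allele, the deleted part of Xbp1, any Cre driver, or the strain, age or sex of the mice.

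Carboxylesterases are ER enzymes that split ester and amide bonds in drugs, retinyl esters and acylglycerols, and in rodents they are encoded by tandem gene clusters. Alcohol dehydrogenases and aldo-keto reductases convert alcohols and carbonyls into each other, and aldehyde dehydrogenases then oxidise aldehydes irreversibly to acids. In the small intestine these enzymes sit mainly in absorptive enterocytes, where they take part in first-pass metabolism, in the handling of dietary alcohols and aldehydes, and in the conversion of retinol to retinaldehyde and retinoic acid.

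Signals are MAS5 values scaled to a common 75th percentile. Signals at or below the median over both arrays, 68.1 units, were held at that floor, and a gene above it on at least 1 array is called measured. Ratios are given as log2 of the knock-out-labelled over the wild-type signal, and a gene is read by its brightest probe set. Signals of different probe sets depend on their oligonucleotides, so levels are compared between pools and not between genes. The brightest probe set for Xbp1 read 8143 in wild-type RNA and 6782 in the other, which checks neither label because the deleted part is not given. The directions below therefore rest on the labels. 

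Of the tissue's cell types, absorptive enterocytes are the main site of these enzymes. Their 12 measured markers were all lower in knock-out-labelled RNA, with log2 ratios from -1.46 to -0.30 and a summed signal of 365435 against 583619. The median of these bright genes was -0.64, but -0.07 after quantile normalization, -0.33 after loess and 0.14 with the hybridisation spikes made equal. Paneth cell markers, 4 measured, summed to 64115 in wild-type RNA and 22063 in knock-out-labelled RNA, and were split, with Lyz1 at -3.26 and Itln1 at -4.00 but Ang4 at 0.45 and Mmp7 at 0.50. The 7 goblet cell markers, 6 of them below 0, summed to 255552 and 127825. Of 4 measured markers of crypt stem and cycling cells, summed at 2568 and 6426, Olfm4, Mki67 and Top2a lay above 0, at 1.68, 0.97 and 0.85, and Lgr5 below it, at a bound of -0.79. The 5 tuft cell markers all lay above 0 and summed to 877 and 1810. Medians of macrophage, B and plasma cell, T cell and enteroendocrine markers lay below 0, at -0.80, -0.60, -0.39 and -0.30. That of smooth muscle and fibroblast markers lay above it, at 0.16. The part of these differences in the values below was not tested. Liver, a tissue rich in the same enzymes, was checked by 4 hepatocyte markers: Alb, at 16.6 and 10.4, Ahsg and Fga lay below the floor in both pools, and Ttr, which other tissues also express, read 123 and 70.9.

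As a set the enzymes lay on the lower side in knock-out-labelled RNA in 6 of 7 scalings, the exception being the hybridisation spikes made equal, where their median log2 ratio was 0.23 and that of all genes 0.62. The lowest ratios were those of Ces1f, Akr1c14, Aldh1a7, Ces2a, Adh1 and Aldh1a1. Of the 54 genes, 42 were measured. At least 2-fold lower were 9 of these 42, or 21.4%, where 5.08% of all 12826 measured genes were. At least 2-fold higher was 1 of 42, or 2.38%, against 2.25% of all measured genes. With the hybridisation spikes equalised, 4 members passed 2-fold on the lower side and 4 on the higher, beside 126 and 2641 of 12825 genes. Below 0 at the main scaling lay 31 members, or 73.8%, against 60.2% of all measured genes. Where 1 pool was at the floor, as for 6 of the 42 members and 2529 of 12826 genes, being measured fixed the sign. Restricted to genes with at least 4 times the floor on either array, 8 of 30 members were at least 2-fold lower, or 26.7% against 4.37%. At least 2-fold higher was 1 of the 30, or 3.33% against 2.10%. Ces1f and Akr1c14 passed this filter only through wild-type RNA, and Akr1c19 only through knock-out-labelled RNA, where each is high. These shares are therefore not independent of the differences counted. The median log2 ratio of the 42 members was -0.53, that of all measured genes -0.11 and that of the enterocyte markers -0.64, and after quantile normalization these were -0.41, -0.01 and -0.07. In bulk RNA on 1 array per group, fewer enterocytes, less RNA per enterocyte and a difference between the arrays cannot be told apart.

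**Figure D1:**
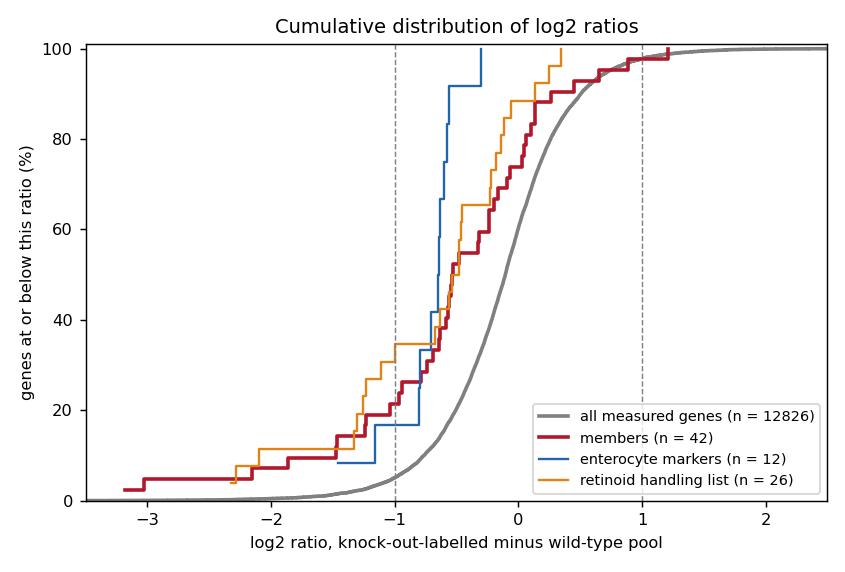
Percentage of genes (y axis) at or below each log2 ratio of the knock-out-labelled over the wild-type pool (x axis) for all 12826 measured genes, the 42 measured members, 12 enterocyte markers and 26 genes of retinoid handling, with dashed lines at 2-fold. The member curve lies left of the curve for all genes over most of its range and meets it near the upper 2-fold line, and the enterocyte markers rise within a narrow range from -1.46 to -0.30.

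Set against the enterocyte markers at this scaling, the members covered a wider range. The members are 42 genes with dim ones among them and the markers 12 bright ones, so the ranges are not like for like. Below the lowest marker, trehalase (Treh) at -1.46, lay 6 members: Ces1f, Akr1c14, Aldh1a7, Ces2a, Adh1 and Aldh1a1, the last of these at -1.47. That band held 196 of all measured genes, or 1.53%. Within the range of the markers lay 19 members, beside 31.8% of all measured genes, and 17 members lay above the highest marker, Mttp at -0.30, beside 66.7%. The 12 members at the floor in both pools were Ces1c, Ces1h, Akr1c6, Akr1c18, Akr1c20, Akr1cl, Akr1d1, Adh6-ps1, Adh6b, Adh7, Aldh3a1 and Aldh8a1, and no probe set of theirs exceeded 64.8 units. Several of these are known as genes of liver, stomach or cornea.

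**Figure D2:**
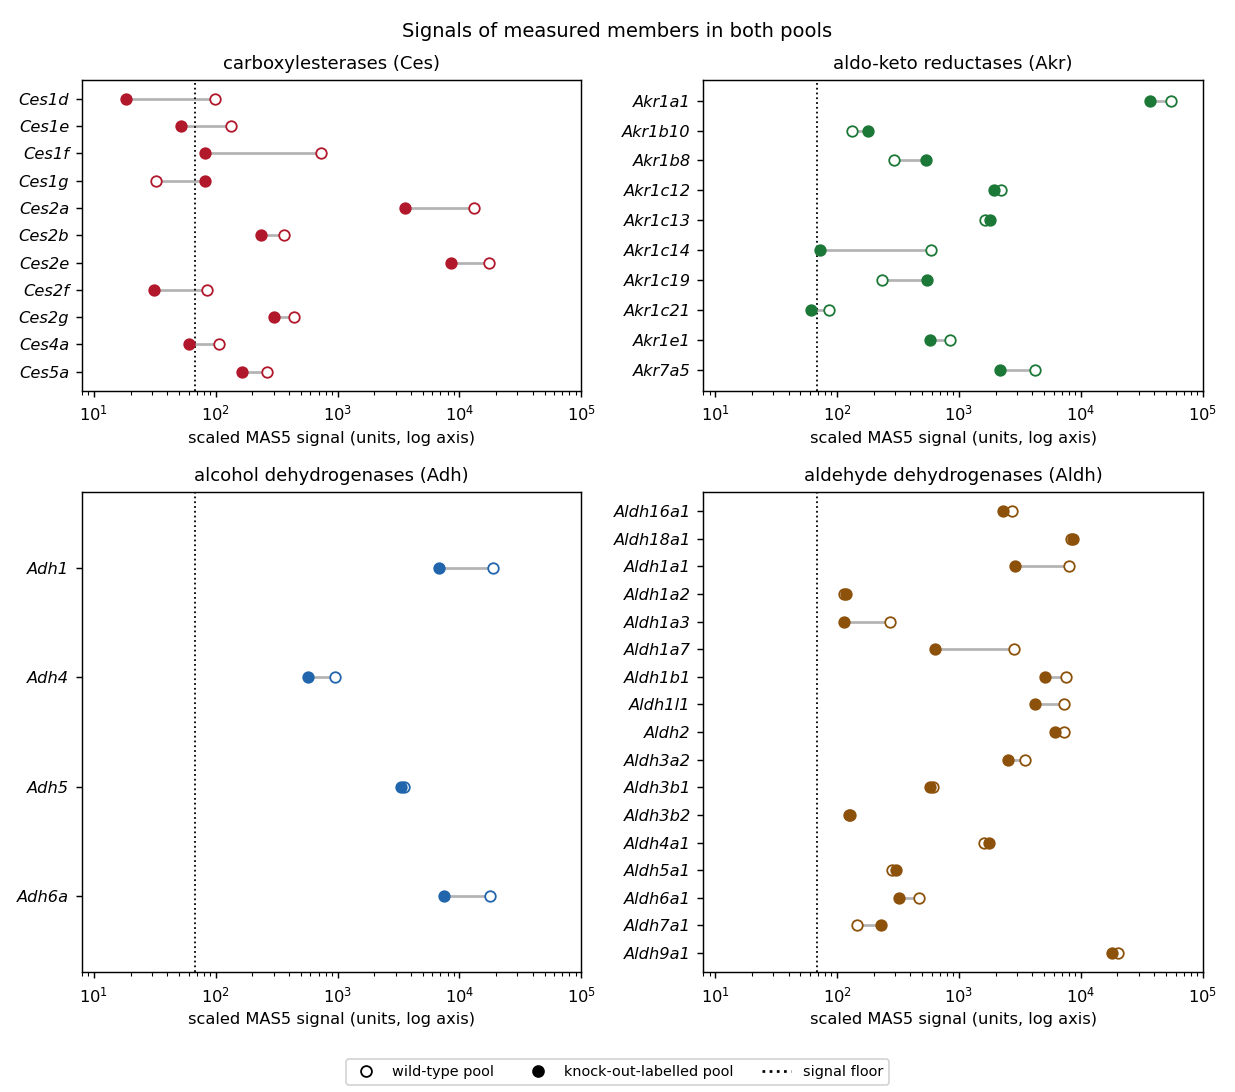
Scaled MAS5 signal (x axis, log scale) of each measured member (y axis) in the wild-type pool (open circles) and the knock-out-labelled pool (filled circles), 1 array each, by family, with the floor of 68.1 units dotted. Ces1f and Akr1c14 end close to the floor in knock-out-labelled RNA, whereas Adh1, Adh6a, Ces2a, Ces2e and Aldh1a1 remain far above it.

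Carboxylesterases mostly lay on the lower side at the main scaling. Of 11 measured genes, 10 lay below 0, where 60.2% of all measured genes did. In 5 of the 11, 1 pool was at the floor, so that being measured fixed the sign of the ratio. At least 2-fold lower were 3, beside 5.08% of all measured genes, with none 2-fold higher. The family median of -0.64 shrank to -0.03 when the hybridisation spikes were equalised, where the median of all genes was 0.62. Ces2a, which hydrolyses acylglycerols and ester drugs in the gut and liver, read 13159 in wild-type RNA and 3611 in knock-out-labelled RNA, 3.64-fold lower. Ces2e, an intestinal esterase of the same gene cluster, read 17655 and 8598, 2.05-fold lower. Both stayed far above the floor. The Ces2e ratio of -1.04 sat just past the 2-fold line and became -0.94 for the values as deposited.

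The remaining Ces2 genes were dimmer and differed less. Ces2g read 443 and 299, and Ces2b 366 and 236, with log2 ratios of -0.57 and -0.63. Ces2f was near the floor, at 85.4 and 31.3, so its ratio of -0.33 is a bound. All 5 Ces2 genes thus had ratios below 0, as 60.2% of all measured genes did, though the floor fixed the sign for Ces2f. With the hybridisation spikes made equal Ces2b and Ces2g turned above 0, at 0.15 and 0.21, and Ces2f was at the floor in both pools.

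Of the Ces1 genes, which encode the esterases best known from liver, plasma and lung, Ces1f alone was well above the floor in the wild-type pool. It read 737 there and 81.1 in knock-out-labelled RNA, 9.09-fold lower, a log2 ratio of -3.18. This was the lowest ratio of all 42 members and the 10th lowest of 12826 measured genes. With the floor at the 75th percentile the knock-out-labelled signal was at the floor, and the ratio became a bound of -1.13. The other Ces1 genes were dim: Ces1e, at 133 and 51.8, was at least 1.95-fold lower, and Ces1d, the triacylglycerol hydrolase of liver and fat, at 98.6 and 18.2, was at least 1.45-fold lower. Ces1g, at 32.2 and 81.9, was at least 1.20-fold higher and was the only measured carboxylesterase above 0. Outside the Ces1 and Ces2 subfamilies, Ces4a, at 106 and 60.4, was at least 1.56-fold lower, and Ces5a, an esterase of cat urine and the epididymis whose gene ends the Ces1 cluster, read 263 and 163, a log2 ratio of -0.69, and its dimmer probe sets, both at the floor in knock-out-labelled RNA, gave bounds of -0.72 and -0.15. With the hybridisation spikes made equal, Ces5a turned to 0.09.

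The 250 bases upstream of Ces2a (chr8:104733753-104734002, plus strand) and Ces2e (chr8:104926010-104926259, plus strand) are shown because these genes of 1 cluster both lay past 2-fold and far above the floor. Sequences are from RefSeq, build GRCm38.p6, and the capitals mark the longest stretch that the pair shares, 17 bases.
Ces2a: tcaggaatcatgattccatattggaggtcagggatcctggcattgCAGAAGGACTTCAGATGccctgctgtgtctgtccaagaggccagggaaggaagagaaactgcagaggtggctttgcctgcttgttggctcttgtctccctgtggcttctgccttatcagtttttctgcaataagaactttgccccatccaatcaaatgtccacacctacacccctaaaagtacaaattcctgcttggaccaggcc
Ces2e: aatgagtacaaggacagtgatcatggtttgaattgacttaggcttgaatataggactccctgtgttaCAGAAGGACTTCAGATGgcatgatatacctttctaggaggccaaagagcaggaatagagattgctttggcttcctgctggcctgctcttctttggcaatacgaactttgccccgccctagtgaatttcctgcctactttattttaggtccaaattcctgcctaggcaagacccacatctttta
The shared stretch ends 189 bases before the start of Ces2a and 167 bases before the start of Ces2e. Aligned over the whole window, 65.6% of the bases were identical, where 18 pairs of the 7 printed windows from different families gave 57.2% to 62.4%. The windows of Adh1 and Adh6a, adjacent genes past 2-fold, were 53.6% identical, below that range.

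Aldo-keto reductases were divided. Of 10 measured genes, 6 had ratios below 0, a share near the 60.2% of all measured genes, and 4 above, and past 2-fold stood 1 lower and 1 higher gene, beside 5.08% and 2.25% of all measured genes. Both belong to the Akr1c cluster of hydroxysteroid dehydrogenases. The family median was -0.26, and it turned to 0.42 with equalised hybridisation spikes, where the median of all genes was 0.62. Akr1c14, which reduces the A ring of steroids such as dihydrotestosterone, read 586 in wild-type RNA and 72.1 in knock-out-labelled RNA, 8.13-fold lower, and was the 12th lowest of all measured genes. Its signal in knock-out-labelled RNA was only just above the floor. With the floor at the 75th percentile the Akr1c14 ratio became a bound of -0.80 and the Akr1c19 ratio a bound of 0.69. Akr1c19, a relative in the same cluster, went the other way, from 235 to 546, 2.32-fold higher.

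Other members of the cluster lay between these. Akr1c12 read 2228 and 1941, a log2 ratio of -0.20, and Akr1c13 read 1635 and 1797, a log2 ratio of 0.14. A probe set that matches both genes gave 3507 and 4489, a log2 ratio of 0.36. Akr1c12 and Akr1c13 are close copies, so signal may be shared between their probe sets. Akr1c21, a steroid dehydrogenase best known from kidney, was at 85.1 and 61.1, a bound of -0.32. Akr1c12 turned to 0.13 and 0.59 with the labelling and hybridisation spikes equalised, and Akr1c21 to 0.26 with the latter.

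The upstream windows of Akr1c14 (chr13:4059341-4059590, plus strand) and Akr1c19 (chr13:4233490-4233739, plus strand) are shown because these genes of 1 cluster lay past 2-fold in opposite directions. Capitals mark the longest stretch they share, 7 bases.
Akr1c14: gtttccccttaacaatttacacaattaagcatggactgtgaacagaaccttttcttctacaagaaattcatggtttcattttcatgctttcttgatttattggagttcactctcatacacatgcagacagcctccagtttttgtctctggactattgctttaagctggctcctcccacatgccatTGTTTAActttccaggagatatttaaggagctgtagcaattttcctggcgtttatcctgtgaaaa
Akr1c19: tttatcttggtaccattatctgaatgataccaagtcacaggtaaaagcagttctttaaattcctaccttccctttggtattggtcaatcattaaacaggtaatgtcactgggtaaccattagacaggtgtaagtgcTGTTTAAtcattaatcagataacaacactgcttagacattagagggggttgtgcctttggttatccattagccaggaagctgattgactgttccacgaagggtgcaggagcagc
Their windows were identical at 59.2% of bases, inside the range of the pairs from different families. By comparison, the windows of Akr1c12 and Akr1c13, which lay at -0.20 and 0.14, were identical at 94.0% of bases and shared a stretch of 75. Both were nearer in sequence to Akr1c19, at 64.4%, than to Akr1c14, at 59.6% for Akr1c12 and 58.8% for Akr1c13.

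Outside the Akr1c cluster, Akr1a1, the aldehyde reductase that also supplies ascorbate synthesis in rodents, was read by 4 bright probe sets. The brightest gave 55022 in wild-type RNA and 36762 in knock-out-labelled RNA, and the 4 log2 ratios ran only from -0.58 to -0.40. Akr7a5, which reduces succinic semialdehyde and aflatoxin dialdehyde, read 4177 and 2171, a log2 ratio of -0.94, with -0.82 on a second bright probe set and a bound of -1.10 on a dim one that read 146 and 35.0. Akr1e1, a reductase of anhydrofructose, read 852 and 583, a log2 ratio of -0.55. Quantile normalization moved Akr1a1 to 0.00, and the hybridisation spikes made equal turned Akr1a1 to 0.20 and Akr1e1 to 0.24 but left Akr7a5 below 0, at -0.16.

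The Akr1b genes, relatives of aldose reductase, lay on the higher side. Akr1b8 read 291 in wild-type RNA and 537 in knock-out-labelled RNA, a log2 ratio of 0.88, which misses the 2-fold line. Akr1b10 read 132 and 180, a log2 ratio of 0.45, and its other probe sets were at the floor in both pools. Both genes were above 0 in all 7 scalings tried, though every other single factor raised the ratios over the main scaling. Akr1b8 passed 2-fold with the labelling spikes equalised, at 1.21, and with the hybridisation spikes both did, at 1.67 and 1.23.

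**Figure D3:**
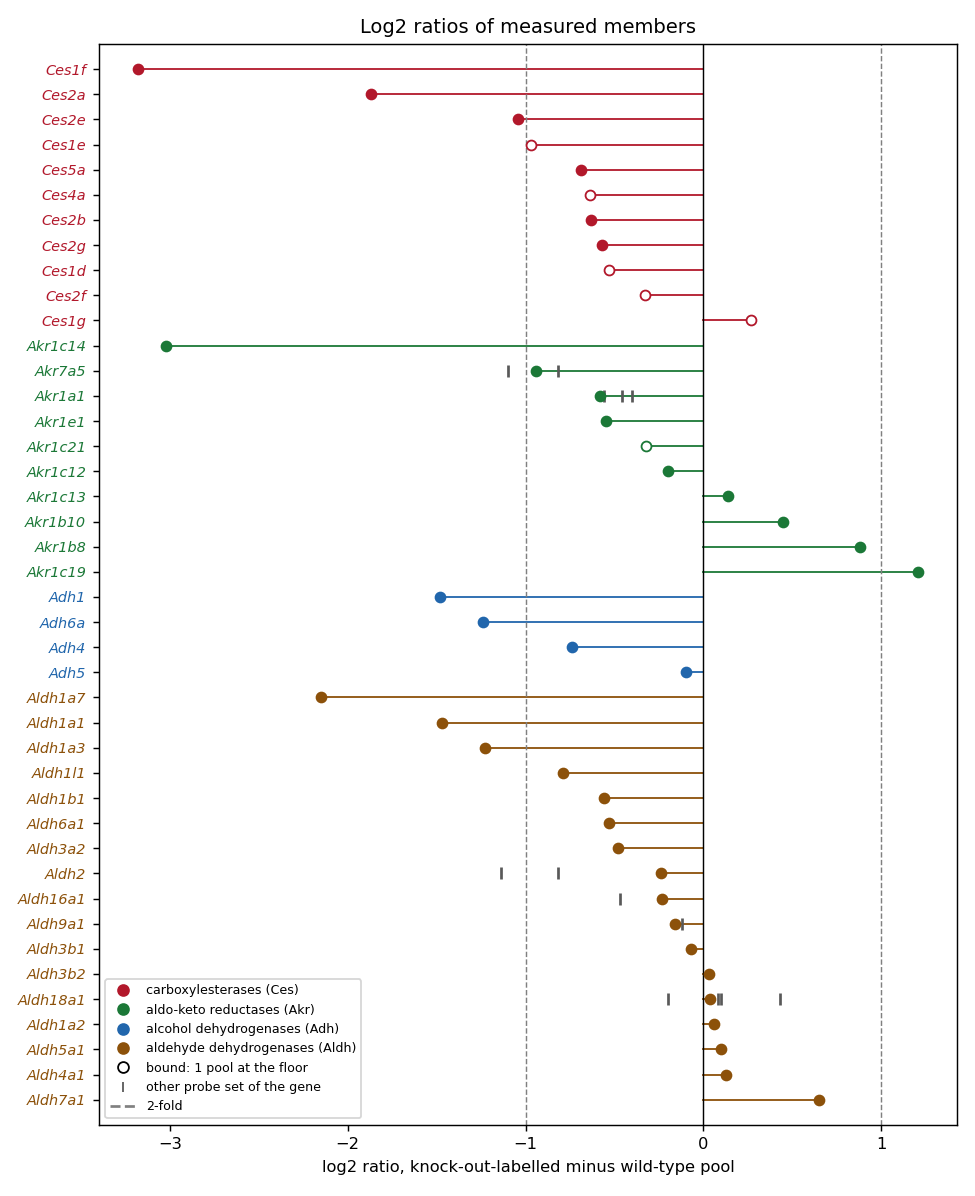
Log2 ratio (x axis, knock-out-labelled minus wild-type pool) of the 42 measured members (y axis), coloured by family, with open circles for bounds, ticks for further probe sets that exceeded 2 times the floor on 1 array, and dashed lines at 2-fold. Carboxylesterases and alcohol dehydrogenases lie mostly to the left of 0, and aldo-keto reductases run from -3.02 for Akr1c14 to 1.21 for Akr1c19.

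The 4 measured alcohol dehydrogenases all had ratios below 0 at the main scaling, as 60.2% of all measured genes did. At least 2-fold lower were 2 of the 4, beside 5.08% of all measured genes. Adh1, the class I enzyme that oxidises ethanol and retinol, read 18893 in wild-type RNA and 6786 in knock-out-labelled RNA, 2.78-fold lower. Adh6a, its neighbour on the chromosome, read 17767 and 7544, 2.36-fold lower. Adh4, the class II enzyme, read 959 and 575, a log2 ratio of -0.74. Adh5, the class III enzyme that clears formaldehyde in nearly all cells, read 3542 and 3316, a log2 ratio of -0.10, and of 0.00 for the values as deposited. The family median of -0.99 shrank to -0.20 when the hybridisation spikes were equalised, where neither Adh1, at -0.69, nor Adh6a, at -0.45, passed 2-fold, and Adh4 turned to 0.05 and Adh5 to 0.69. With the labelling spikes equalised Adh1 was at -1.15, Adh6a missed 2-fold at -0.91 and Adh5 turned to 0.23.

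Among the promoter motifs searched, Adh6a was the only gene past 2-fold with a match. Its window (chr3:138313036-138313285, plus strand) is shown with the match to TGACNNNGC, the core that NRF2 binds, and a TATA box in capitals.
Adh6a: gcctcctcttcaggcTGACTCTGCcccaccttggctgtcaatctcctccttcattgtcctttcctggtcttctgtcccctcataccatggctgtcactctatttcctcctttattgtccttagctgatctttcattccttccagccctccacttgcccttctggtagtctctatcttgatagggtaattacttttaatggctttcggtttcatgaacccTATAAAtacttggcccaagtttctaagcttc
The first capitals begin 235 bases before the start, and TATAAA begins 31 bases before it. TGACNNNGC occurs on either strand in 10.2% of 32851 RefSeq windows of this length and in 4 of 43 member genes with a window, Adh6a, Akr1cl, Aldh1a2 and Aldh9a1. TATAAA between 40 and 21 bases before the start, a search added after the data were seen, occurs in 1.87% of all windows and among members in that of Adh6a alone.

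The remaining motifs were searched on both strands in the same windows. TGATGNAA, the composite element read by ATF4 and CHOP, is in 3.45% of all windows and in 0 of 43 member genes, and TGACGTGG, the unfolded protein response element, is in 0.563% and in 0 of 43. AGGTCANAG, a direct repeat read by HNF4A, RXR and PPAR partners, is in 1.75% of all windows and in those of Adh4 and Aldh3b1. GTTAATNAT, an HNF1 element, is in 0.737% and in that of Ces5a. Windows were at hand for 7 of the 9 members at least 2-fold lower, Ces1f and Aldh1a3 being without one. A match is a run of letters and was not tested as a binding site.

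Aldehyde dehydrogenases differed by subfamily. Of 17 measured genes, 11 lay below 0, a share near the 60.2% of all measured genes, and past 2-fold stood 3, all lower, beside 5.08% of all measured genes. All 3 were Aldh1a genes, which encode or resemble the cytosolic enzymes that make retinoic acid from retinaldehyde. The family median was -0.23, and it turned to 0.09 and 0.55 with labelling and hybridisation spikes equalised, where the median of all genes was 0.20 and 0.62. Aldh1a1 read 8033 in wild-type RNA and 2906 in knock-out-labelled RNA, 2.76-fold lower. Aldh1a7, its neighbour and close copy, read 2823 and 634, 4.45-fold lower. As paralogs of similar sequence they may share signal, so the separate values are uncertain. Aldh1a3, at 270 and 115, was 2.35-fold lower on its brightest probe set, while its dimmer probe sets, at 43.9 and 70.2 and at 57.7 and 53.3, gave a bound of 0.04 and no value. With equalised hybridisation spikes neither Aldh1a1, at -0.68, nor Aldh1a3, at -0.45, passed 2-fold, and with the labelling spikes Aldh1a3 missed it at -0.90.

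Aldh1a2, the retinaldehyde dehydrogenase known from stromal and dendritic cells of the mucosa, did not share this direction. It was dim and read 114 in wild-type RNA and 119 in knock-out-labelled RNA, a log2 ratio of 0.06. Aldh1b1, a mitochondrial relative, read 7544 and 5108, a log2 ratio of -0.56. Aldh1l1, the enzyme that oxidises formyl-tetrahydrofolate, read 7322 and 4240, a log2 ratio of -0.79, and a dim probe set near the floor, at 71.6 and 60.5, gave a bound of -0.07. With equalised hybridisation spikes Aldh1b1 turned to 0.22 and Aldh1l1 was at 0.00.

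The windows upstream of Aldh1a1 (chr19:20492333-20492582, plus strand, the first listed of 2 RefSeq starts) and Aldh1a7 (chr19:20727557-20727806, minus strand) are shown because these adjacent copies had the lowest ratios of their family. Capitals mark their longest shared stretch, 8 bases.
Aldh1a1: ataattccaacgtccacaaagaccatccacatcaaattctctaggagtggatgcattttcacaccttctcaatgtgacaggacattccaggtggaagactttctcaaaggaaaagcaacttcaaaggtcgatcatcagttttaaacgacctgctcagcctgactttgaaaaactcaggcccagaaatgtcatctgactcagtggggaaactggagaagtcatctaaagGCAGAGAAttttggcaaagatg
Aldh1a7: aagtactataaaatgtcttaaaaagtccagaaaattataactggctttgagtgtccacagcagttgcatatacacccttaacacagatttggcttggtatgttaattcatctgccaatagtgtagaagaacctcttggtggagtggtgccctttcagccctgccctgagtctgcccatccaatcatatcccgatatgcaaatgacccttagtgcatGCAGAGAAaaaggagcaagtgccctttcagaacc
The windows were identical at 63.2% of bases, just above the range of the pairs from different families, and none of the motifs above was found in them, TATAAA having been sought only between 40 and 21 bases before the start.

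Mitochondrial enzymes of amino acid metabolism lay on both sides of 0. Their 5 members ran from -0.53 to 0.65 with a median of 0.10, and none passed 2-fold at the main scaling. With equalised hybridisation spikes all 5 lay above 0, from 0.26 for Aldh6a1 to 1.44 for Aldh7a1, which then passed 2-fold. Aldh18a1, which makes pyrroline carboxylate on the way to proline and ornithine, read 8371 and 8630, a log2 ratio of 0.04, and its 5 probe sets ran from -0.20 to 0.43. Aldh4a1, which oxidises the same intermediate during proline breakdown, read 1620 and 1779, a log2 ratio of 0.13. Aldh5a1, of GABA breakdown, read 284 and 305. Aldh6a1, of valine and thymine breakdown, read 467 and 324, a log2 ratio of -0.53, and Aldh7a1, of lysine breakdown, read 146 and 229, a log2 ratio of 0.65, while a dimmer probe set at 89.8 and 13.3 gave a bound of -0.40.

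Aldh2, the mitochondrial enzyme that clears acetaldehyde, read 7295 and 6187 on its bright probe set, a log2 ratio of -0.24. Its dimmer probe sets disagreed in size: 276 and 125 gave -1.14, and 187 and 106 gave -0.82. Aldh9a1, of carnitine synthesis, read 20245 and 18088, a log2 ratio of -0.16, with -0.12 on a second probe set, and turned to 0.11 after quantile normalization and 0.08 after loess. Of the enzymes for fatty and medium-chain aldehydes, Aldh3a2, which oxidises fatty aldehydes in the ER, read 3498 and 2511, a log2 ratio of -0.48, whereas Aldh3b1 and Aldh3b2 had -0.07 and 0.03. Aldh16a1 read 2711 and 2305, a log2 ratio of -0.23, with -0.47 on a second probe set.

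Of the 10 members past 2-fold, 9 were read by 1 probe set only, and 0 had a second probe set above 2 times the floor. The Ces1f probe set carries the suffix _s_at, the manufacturer's mark for oligonucleotides that also match other transcripts, and the Ces1 genes are alike in sequence. Akr1a1, Akr7a5, Aldh16a1, Aldh18a1 and Aldh9a1 had several probe sets above 2 times the floor in both pools. Their ratios scattered with an SD of 0.16, against 0.30 over 3412 genes of the whole array under the same filter. That filter left out probe sets that were dim in knock-out-labelled RNA and lay further off. These were at -1.14 and -0.82 for Aldh2, beside -0.24 on its brightest, and at a bound of -1.10 for Akr7a5.

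In the clusters of Akr1c14, Adh1, Ces2a and Ces1f, the members at least 2-fold lower were mixed with genes that were not. Aldh1a1 and Aldh1a7, which form a cluster by themselves, were both at least 2-fold lower, at -1.47 and -2.15. In RefSeq order, and counting coding genes only, the cluster of 9 genes that starts with Akr1c14 ran through -3.02 for Akr1c14, 0.14 for Akr1c13, 1.21 for Akr1c19 and -0.20 for Akr1c12 to -0.55 for Akr1e1. In the Adh cluster the ratios went from -1.48 for Adh1 and -1.24 for Adh6a to -0.74 for Adh4 and -0.10 for Adh5, with Adh7 and Adh6b at the floor. The Ces2 cluster gave -1.87 at Ces2a, -0.63 at Ces2b, -1.04 at Ces2e and -0.57 at Ces2g. In the Ces1 cluster Ces1f stood between Ces1e and Ces1g, both bounds near the floor.

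**Figure D4:**
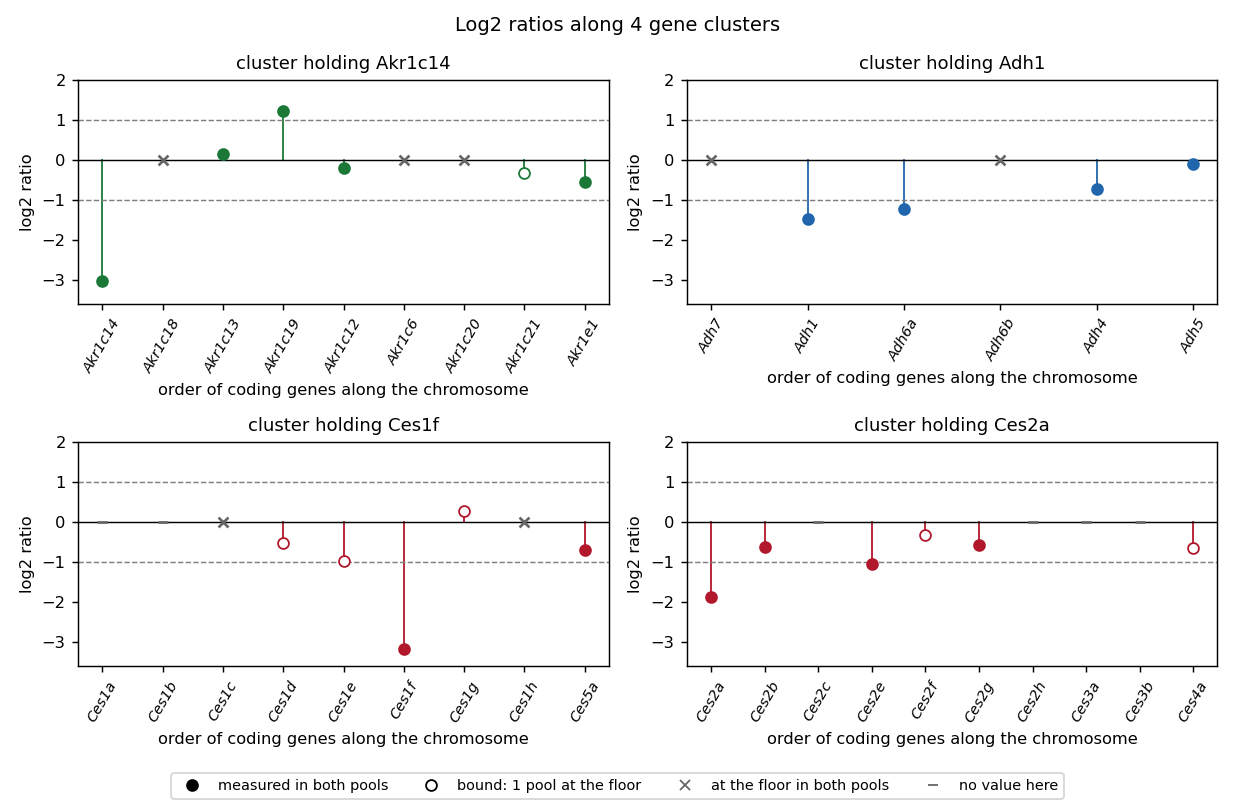
Log2 ratio (y axis) of coding genes in chromosomal order (x axis) in the clusters that hold Akr1c14, Adh1, Ces1f and Ces2a, with filled circles for genes measured in both pools, open circles for bounds, crosses for genes at the floor in both pools and short bars for genes with no value here. Neighbours differ in each cluster, from -3.02 to 1.21 in that of Akr1c14 and from -1.48 to -0.10 in that of Adh1.

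Genes of neighbouring pathways were read from lists chosen with earlier results of these data known, so they are no independent support. Of 26 measured genes of retinoid handling, 8 passed 2-fold, all lower, beside 5.08% of all measured genes. Beside 60.2% of all measured genes, 23 of the 26 lay below 0, though in 4 of the 26 a pool at the floor fixed the sign. Their median was -0.51, and it turned to 0.28 with the hybridisation spikes made equal, where 3 were still at least 2-fold lower. They span the path that Adh1 and the Aldh1a enzymes complete. Bco1, which cleaves carotene to retinaldehyde, read 502 in wild-type RNA and 117 in knock-out-labelled RNA, 4.29-fold lower. Rdh7, a microsomal retinol dehydrogenase, read 5544 and 1138, 4.87-fold lower, and its relatives Rdh16 and Rdh9 were 2.51-fold and 2.16-fold lower. Retsat, which saturates retinol, read 3174 and 635, a log2 ratio of -2.32.

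The retinaldehyde reductase Dhrs3 was 2.35-fold lower, and Scarb1 and Cd36, which take up carotenoids and lipids, were 2.47-fold and 2.39-fold lower. Rbp2, the retinol carrier of enterocytes, read 51390 and 37385, a log2 ratio of -0.46, and Isx, the factor that represses Bco1 and Scarb1, read 3865 and 3569, a log2 ratio of -0.11. Above 0 were Rdh10 at 0.25, Rdh13 at 0.13 and Stra6 at a bound of 0.35. The part of the enterocyte marker values in these ratios was not tested.

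Enzymes with similar chemistry from other families had medians close to those of the Akr and Aldh families. Of 21 measured carbonyl and quinone reductases, the median was -0.22, turning to 0.10 and 0.56 with the labelling and hybridisation spikes made equal. Past 2-fold stood Dcxr, the xylulose reductase, from 2096 down to 968, and Hsd17b13, a lipid droplet protein, from 330 up to 747. These counts of 1 lower and 1 higher stand beside 5.08% and 2.25% of all measured genes. Cbr1, the main cytosolic carbonyl reductase, read 7825 and 5052, a log2 ratio of -0.63, and Nqo1, a target of NRF2, read 327 and 280. Of 20 measured esterases and hydrolases outside the Ces family, the median was -0.24, turning to 0.06 and 0.52 in the same scalings. Daglb, a diacylglycerol lipase, alone passed 2-fold, from 344 down to 164, a share near the 5.08% of all measured genes. Aadac, a microsomal esterase with substrates like those of carboxylesterases, read 2133 and 1583, a log2 ratio of -0.43.

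Scaling the arrays by another single factor moved all ratios together, up to the floor. The hybridisation spikes, control transcripts usually added in fixed amounts, had a median log2 ratio of -0.69 over 18 probe sets in the deposited values, and the labelling spikes -0.23 over 27. With those spikes made equal, the median of all genes was 0.62 and 0.20 in place of -0.11, and that of the members 0.23 and -0.21. Of the 31 members below 0 in the main scaling, 27 were below 0 in all 5 scalings without spikes. Of these, 24 were below 0 also with the labelling spikes and 14 also with the hybridisation spikes. The 11 members above 0 were above it in all 7. Every other single factor raised the ratios over the main scaling, so those factors could not bring these members below 0. A single factor leaves the difference between medians unchanged but for the floor. Relative to the median of all genes, the members' median lay between -0.42 and -0.37 in the 7 scalings. Quantile normalization and loess, the only scalings of another kind, gave -0.40 and -0.37. For carboxylesterases this difference ran from -0.66 to -0.54, for alcohol dehydrogenases from -0.88 to -0.83, for aldo-keto reductases from -0.21 to -0.05 and for aldehyde dehydrogenases from -0.13 to -0.07.

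**Figure D5:**
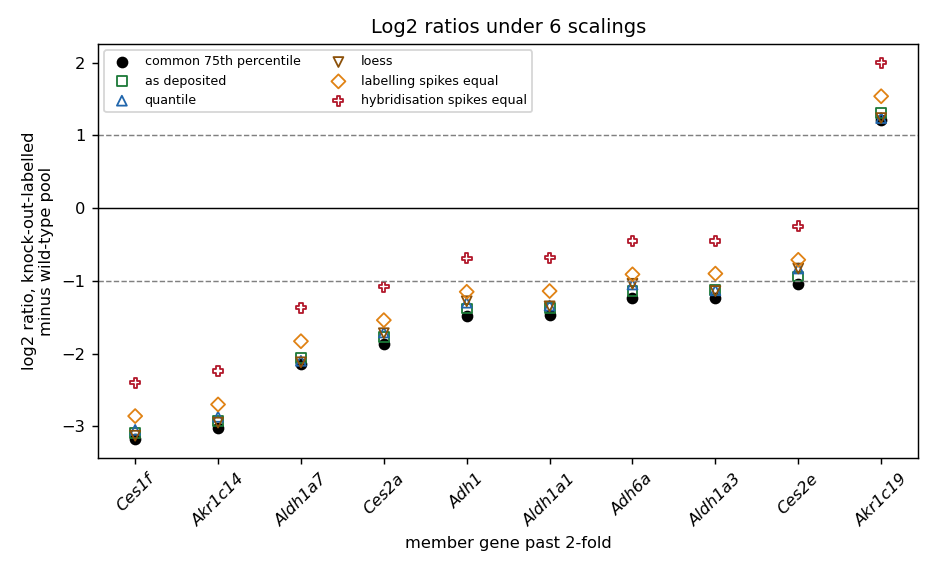
Log2 ratio (y axis) of the 10 members past 2-fold (x axis) under 6 scalings of the arrays, with dashed lines at 2-fold. Each gene kept its side of 0 in all 6, and Ces1f, Akr1c14, Aldh1a7, Ces2a and Akr1c19 stayed past 2-fold throughout. The shifts by a single factor were too small to move a gene past 2-fold across 0.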

How the data were processed

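Gene expression was measured on 2 arrays, 1 per genotype, each from RNA pooled from 3 mice. The authors deposited linear intensity values, MAS5 signals per the submitters' processing notes; neither software version nor detection calls were given in the sources used here. Each array was scaled to a common 75th percentile over all probe sets but controls (factors 1.03 and 0.967), floored at the 50th percentile of both arrays (68.1 units) and log2-transformed. A gene was read by its brightest probe set (mean floored log2 signal). Symbols came from the platform annotation and were updated by Entrez number through RefSeq GRCm38.p6, which matched 99.4% of probe sets with 1 symbol; members kept their platform symbols. Promoter windows are the 250 bases before each RefSeq start. A ratio with 1 pool at the floor is a bound, given as "at least" or "at most". Named genes are members that reached 4 times the floor or passed 2-fold, with the other members by range or briefly; The members and lists were chosen with earlier results of these data known. Alternatives covered scaling, floor, probe set choice, dim genes and fold threshold. The fold calls were tested on simulated data with little scatter and with changes clearly past 2-fold in genes above 4 times the floor. That test does not cover dim genes, ratios close to the 2-fold line or differences between mice. Analyses used Python 3.11.15 with pandas 2.3.3 and statsmodels 0.14.6.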

Additional observations from a re-analysis of the deposited data

How the results depend on the processing

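With 1 array per group the precision is limited by the number of arrays, and dim members (12 measured members under 4 times the floor) are the least certain. The share of members at least 2-fold lower exceeded that of all measured genes in each of the 13 alternatives, from 9.52% against 0.982% with hybridisation spikes made equal to 38.1% against 16.3% at a 1.5-fold threshold. Of the 10 members past 2-fold, 3 (Ces1f, Ces2a and Aldh1a7) stayed past 2-fold in every alternative that gave them a value and changed scaling, floor, probe set or dim genes. None of the 10 turned to the opposite sign, but Aldh1a3 fell to 0.00 with the median over probe sets. The shifts by a single factor were too small to turn any of them. With the floor at the 75th percentile, Akr1c14 and Akr1c19 were lost, as bounds short of 2-fold, and Aldh1a3 had no value. Ces2e was lost in all 6 scalings. The median of the members moved from -0.53 to 0.23 and -0.21 with hybridisation and labelling spikes made equal. The count of members past 2-fold moved from 10 to 18 with the floor at the 25th percentile, where 51 members were measured, to 19 at 1.5-fold and to 4 at 3-fold. Members on the lower side made 31.4%, 38.1% and 9.52% there, beside 15.2%, 16.3% and 1.05% of all measured genes. On the higher side were 2, 3 and 0 members, beside 1139 of 16622, 1005 of 12826 and 55 of 12826 genes. The Ces count moved from 3, all lower, to 8 of 13 with that low floor, 7 lower and 1 higher. At 1.5-fold it was 7 of 11, all lower. The Akr count moved from 2 of 10, 1 lower and 1 higher, to 4 with hybridisation spikes made equal, 1 lower and 3 higher. It was 0 of 8 with the floor at the 75th percentile, 2 lower and 2 higher at 1.5-fold and 1 lower at 3-fold. The Adh count, all lower, moved from 2 of 4 to 0 and 1 with hybridisation and labelling spikes made equal, 4 of 6 with the low floor and 0 at 3-fold. In all measured genes 0.982% and 2.52% were lower with these spikes and 3.05% with the high floor. Higher were 2641 of 12825, 711 of 12747 and 85 of 7173 genes. The Aldh count moved from 3 to 5 at 1.5-fold and 1 at 3-fold. Cause of these moves beyond the settings' own construction was not tested. No paired analysis was possible because each group is 1 array.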
